A study of Mus musculus with 28 samples.

Results

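The subject here is a set of 35 genes for glycolysis and the response to low oxygen, followed in macrophages sorted from the mouse pancreas during caerulein-induced acute pancreatitis (AP) and recovery. The set was chosen by gene name, with earlier results of these data known. It held 16 glycolytic enzymes, 3 glucose transporters and 2 bifunctional regulators of phosphofructokinase. The rest were Hif1a with 2 of the prolyl hydroxylases that act on its protein, and 11 other genes known as targets of hypoxia-inducible factor (HIF). All 35 were among the 25301 genes measured, and all 35 passed the filter on low values (3 or more libraries with an FPKM of 1 or higher). FPKM scales sequenced fragments to transcript length and library size. It does not adjust for a different makeup of the RNA between libraries, and summed FPKM ran from 374871 to 460792. Results under other scalings of the libraries are therefore given beside the main ones.

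All mice were C57BL/6J and wild type, and the cells were labelled pancreatic macrophages isolated by fluorescence-activated sorting; the labels give neither the sorting markers nor the ages of the animals. There were 6 groups and 28 libraries. A group named NC, a name the labels do not spell out, had 3 libraries. A group named D0, day 0 of the caerulein recovery model, had 5. Day 1 had 6 libraries given PBS (D1 AP+PBS) and 6 given lactate (D1 AP+Lac), and day 3 had 4 of each (D3 AP+PBS and D3 AP+Lac). The dose and the route of lactate are not given in the labels. The labels do not say whether each library came from its own animal, so the tests measure the spread between libraries.

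Glycolysis splits glucose into pyruvate in the cytosol: hexokinases trap glucose as its phosphate, phosphofructokinase commits it to the pathway, and phosphoglycerate kinase and pyruvate kinase return ATP. HIF is a transcription factor whose alpha subunit is marked for destruction by prolyl hydroxylases when oxygen is present; when it accumulates it binds short sequences with the core ACGTG or GCGTG and raises many glycolytic genes, along with genes for mitophagy, collagen hydroxylation and feedback on the pathway itself. Inflammatory macrophages are known for relying on glycolysis, and inflammatory signals can raise Hif1a transcripts without a lack of oxygen.

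Total depth was 33273303 to 41060490 fragments per library. Markers of macrophages were high in every library: Adgre1 was at 114 FPKM or more and Csf1r at 221 FPKM or more. The mean log2(FPKM + 1) of 12 macrophage genes was 8.60 to 8.87 in NC and 8.22 to 8.49 in D0. By the limma test described below, 2 of the 12 were higher in D0 and 4 lower. Csf1r was at 663 to 890 FPKM in NC and 300 to 334 in D0, and Adgre1 at 275 to 402 and 250 to 354. Other cell types were present as well and moved between groups. The mean log2(FPKM + 1) of 16 acinar enzyme genes was 7.87 to 8.54 in NC and 3.48 to 4.32 in D0, and that of 10 monocyte genes 5.54 to 6.23 and 7.94 to 8.68. In the same order, neutrophil genes were at 1.99 to 2.77 and 3.36 to 4.38, B and plasma cell genes at 5.18 to 5.47 and 1.45 to 2.72, T and NK cell genes at 3.20 to 3.83 and 0.89 to 2.08, dendritic cell genes at 4.19 to 4.37 and 2.04 to 2.48, and cell cycle genes at 3.70 to 3.83 and 1.36 to 1.70. Ly6g, a neutrophil marker, was at 0.547 FPKM or less in every library. S100a8, another gene of the neutrophil list, was at 14.7 to 47.3 FPKM in NC and 79.1 to 225 in D0. Of 11 neutrophil genes tested, 6 were higher in D0 and 1 lower. The library D3 AP+PBS 2 stood apart with the highest acinar level of its group, 9.22. In bulk RNA, fewer cells of a type and less RNA per cell cannot be told apart.

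The start regions of 4 HIF targets are printed first, because each holds at least 1 HIF core and they differed in direction in D0: Pgk1 (phosphoglycerate kinase) and P4ha1 (a collagen prolyl hydroxylase subunit) were higher, while P4ha2 (its sister subunit) and Ddit4 (an inhibitor of mTOR signalling) were lower. Each run is the 250 bases before the annotated start, 5′ to 3′ on the gene's strand, from RefSeq (GRCm38.p6; no source used here gives the build of the expression table). Capitals mark ACGTG and GCGTG on either strand, which on the printed strand also read CACGT and CACGC.
Pgk1 (chrX:106186850-106187099, plus strand): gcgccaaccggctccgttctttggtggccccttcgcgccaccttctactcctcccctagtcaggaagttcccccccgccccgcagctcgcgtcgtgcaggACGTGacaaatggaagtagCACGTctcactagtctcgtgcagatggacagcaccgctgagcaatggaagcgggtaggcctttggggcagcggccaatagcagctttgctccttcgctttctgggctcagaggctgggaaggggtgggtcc
P4ha1 (chr10:59323046-59323295, plus strand): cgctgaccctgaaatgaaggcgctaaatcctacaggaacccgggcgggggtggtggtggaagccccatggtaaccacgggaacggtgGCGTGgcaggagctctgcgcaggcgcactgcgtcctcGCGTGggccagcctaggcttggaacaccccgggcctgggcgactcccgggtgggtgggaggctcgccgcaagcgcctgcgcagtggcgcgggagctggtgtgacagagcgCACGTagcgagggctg
P4ha2 (chr11:54100674-54100923, plus strand): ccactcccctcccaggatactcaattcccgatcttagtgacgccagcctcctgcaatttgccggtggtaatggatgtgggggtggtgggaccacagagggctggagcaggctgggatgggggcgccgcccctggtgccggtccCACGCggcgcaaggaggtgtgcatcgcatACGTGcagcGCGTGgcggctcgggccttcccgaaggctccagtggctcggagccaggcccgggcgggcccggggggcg
Ddit4 (chr10:59951771-59952020, minus strand): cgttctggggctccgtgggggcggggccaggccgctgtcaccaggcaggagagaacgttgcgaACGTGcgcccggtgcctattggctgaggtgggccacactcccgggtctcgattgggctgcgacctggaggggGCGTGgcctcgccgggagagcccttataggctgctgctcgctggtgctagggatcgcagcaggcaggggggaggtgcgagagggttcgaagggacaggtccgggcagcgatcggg

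Pgk1 held 2 ACGTG cores, P4ha1 and P4ha2 held 1 ACGTG and 2 GCGTG cores each, and Ddit4 held 1 of each. Windows were found for 32 of the 35 genes, 48 windows in all; Slc2a3, Bnip3l and Ndrg1 had none. At least 1 core was present in 77.1% of these 48 windows, in 55.0% of the 12043 windows of tested genes and in 38.6% of all 32851 windows of this length. The share was 84.2% of 19 windows of genes that were higher in D0, 72.2% of 18 windows of genes that were lower and 72.7% of 11 windows of genes that were not called. These windows came from 14, 9 and 9 genes. A gene with several annotated starts counts once per start, and its windows can overlap, so these are not shares of genes. The genes with no core in any window were Tpi1 among those higher, Eno2 among those lower and Gpi1 among those not called. A match describes the letters in this window only, and CACGTG holds ACGTG on both strands.

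The comparison of D0 with NC asked how the set stood at day 0 of the model. Most enzymes of the glycolytic chain rose, with Pkm, Eno1 and Pgk1 foremost, together with the glucose transporter Slc2a1 and Hif1a itself. The other HIF targets were split in direction. Of the 35 genes, 15 rose and 11 fell (limma on log2(FPKM + 1), Benjamini-Hochberg adjusted p under 0.05 over all 11960 genes tested). Over all genes tested 61.1% were called, 19.7% higher and 41.4% lower, against 74.3% of the set, 42.9% higher and 31.4% lower. The median log2 fold change of the set was 0.09, against -0.22 over all genes. With another scaling of the libraries (quantile normalization) the 2 medians were 0.25 and 0.06, and the split 17 higher and 5 lower. With a further scaling (median-ratio scaling) the 2 medians were 0.38 and 0.03, and the split 17 higher and 11 lower. None of the main calls was lost under median-ratio scaling. In 26 of the 35 genes the D0 and NC libraries did not overlap, against 68.3% of all genes tested.

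**Figure D1:**
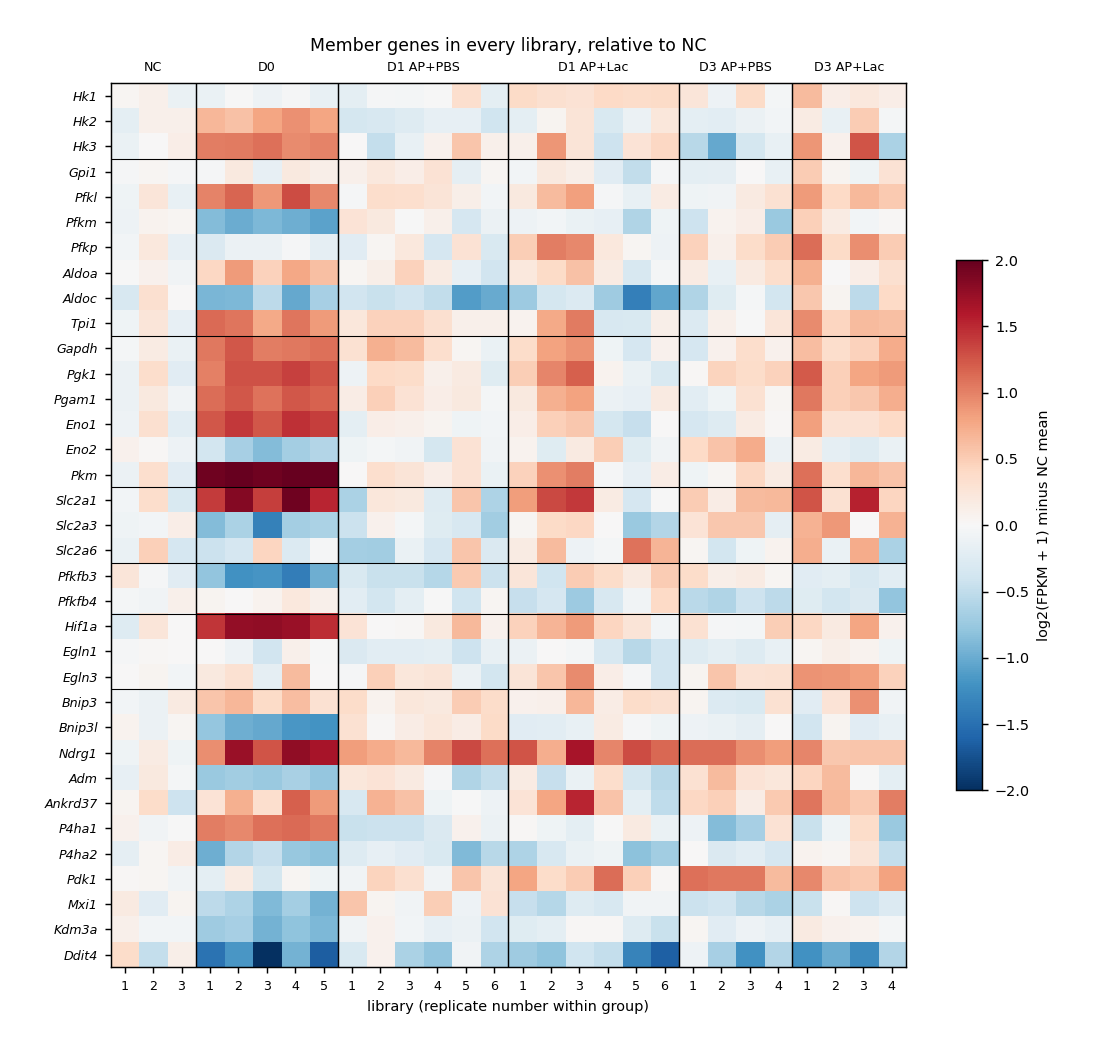
The 35 genes (rows, grouped by role) in each of the 28 libraries (columns, grouped by condition), as log2(FPKM + 1) minus the NC mean of the gene; red is higher and blue lower, and the colour scale ends at -2 and 2. The 5 D0 libraries are red for Pkm, Eno1, Pgk1, Slc2a1 and Hif1a and blue for Pfkm, Pfkfb3, Bnip3l and Ddit4, and most of these colours are absent in the day 1 and day 3 libraries.

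Hexokinases, which trap glucose in the cell, differed in D0 by isozyme. Hk3, the myeloid isozyme, was at 28.2, 31.3 and 34.1 FPKM in NC and at 64.1, 64.8, 68.1, 61.1 and 63.0 FPKM in D0. No D0 library overlapped NC, and the log2 fold change was 1.02 ± 0.30 (SE; adjusted p = 0.0048). Hk2, the inducible isozyme bound to mitochondria, rose by 0.75 ± 0.13 on the log2 scale (adjusted p = 3.1e-05). Hk1, the housekeeping isozyme, was at 18.8 ± 1.68 FPKM in NC (SD, n = 3) and 17.6 ± 0.816 in D0 (SD, n = 5), a log2 difference of -0.08 (adjusted p = 0.55). With the acinar level added to the fit as a covariate, the Hk3 value was -0.46 (adjusted p = 0.42), and the call was also lost with the lymphocyte level (0.48) and the neutrophil level (0.55). The Hk2 call was lost with the acinar level (0.47).

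In the upper steps, Pfkl, the liver-type phosphofructokinase, rose by 1.06 ± 0.17 (log2, SE; adjusted p = 1.2e-05), from 14.5 ± 2.28 FPKM in NC to 31.4 ± 4.03 in D0. Pfkm, the muscle type, went the other way, from 3.35, 3.91 and 3.83 FPKM to 1.57, 1.35, 1.51, 1.39 and 1.24 FPKM (log2 fold change -0.96 ± 0.17, adjusted p = 3.1e-05; -0.67 and not called with the acinar level). Pfkp, the platelet type, was at 22.7 ± 3.28 and 20.4 ± 1.42 FPKM (adjusted p = 0.57). So the share of Pfkl in the summed FPKM of the 3 genes was 35.5% ± 0.638 in NC and 58.9% ± 2.46 in D0, and that of Pfkm 9.11% ± 1.15 and 2.68% ± 0.401. Tpi1, triosephosphate isomerase, rose by 0.98 (adjusted p = 5.1e-04). Gpi1, which converts glucose 6-phosphate to the fructose form, was the most abundant gene of the upper steps in NC at 137 ± 3.90 FPKM. In D0 it stood at 144 ± 15.4 FPKM (log2 difference 0.07, adjusted p = 0.68). Gpi1 passed under median-ratio scaling (0.38) and with the lymphocyte level (0.47).

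The aldolases, which split the sugar, were listed at low values that need caution. Aldoa averaged 1.68 FPKM in NC and 3.14 in D0 (log2 fold change 0.62, adjusted p = 0.0058; not called with the acinar or neutrophil level), although Gpi1 and Tpi1, close to it in the pathway, averaged 137 and 100 FPKM in NC. Aldoc, the brain-type isozyme, fell from 2.62 ± 0.803 to 1.05 ± 0.292 FPKM (log2 fold change -0.81, adjusted p = 0.0058), and its log2 fold change was -0.18 (adjusted p = 0.48) under quantile normalization, -0.28 with the acinar level and -0.08 with the lymphocyte level. No source used here says how fragments shared between near-identical gene copies were counted, so the levels of Aldoa, Gapdh, Pgk1 and Eno1 are uncertain. The copy Eno1b had 3.07 FPKM in NC and 9.53 in D0, while Aldoart1, Gapdhs and Pgk2 were at 0.133 FPKM or less in every library.

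The largest rise was in the lower, ATP-yielding steps. Pkm, pyruvate kinase (NCBI Gene 18746), was at 71.4, 98.9 and 66.5 FPKM in NC and at 301, 343, 302, 355 and 319 FPKM in D0. The lowest D0 library was above the highest NC library, and the log2 fold change was 2.04 ± 0.22 (SE; adjusted p = 1.8e-08). Eno1, enolase (NCBI Gene 13806), had the highest level of the whole set, 224, 298 and 206 FPKM in NC and 568, 641, 570, 662 and 627 FPKM in D0. It rose by 1.35 ± 0.19 on the log2 scale (adjusted p = 1.3e-06). Pgk1 rose by 1.24, Pgam1 (phosphoglycerate mutase) by 1.18 and Gapdh by 1.09, with adjusted p of 1.6e-04, 5.1e-06 and 1.6e-04. Eno2, the neuronal enolase, fell by 0.63 (adjusted p = 0.0031) from 1.45 ± 0.162 to 0.593 ± 0.204 FPKM, and its value was 0.03 (adjusted p = 0.88) under quantile normalization; the call was also lost with the acinar (-0.61) and lymphocyte (-0.17) levels. Of the 16 enzymes, 10 rose and 3 fell; the split was 10 and 1 under quantile normalization.

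**Figure D2:**
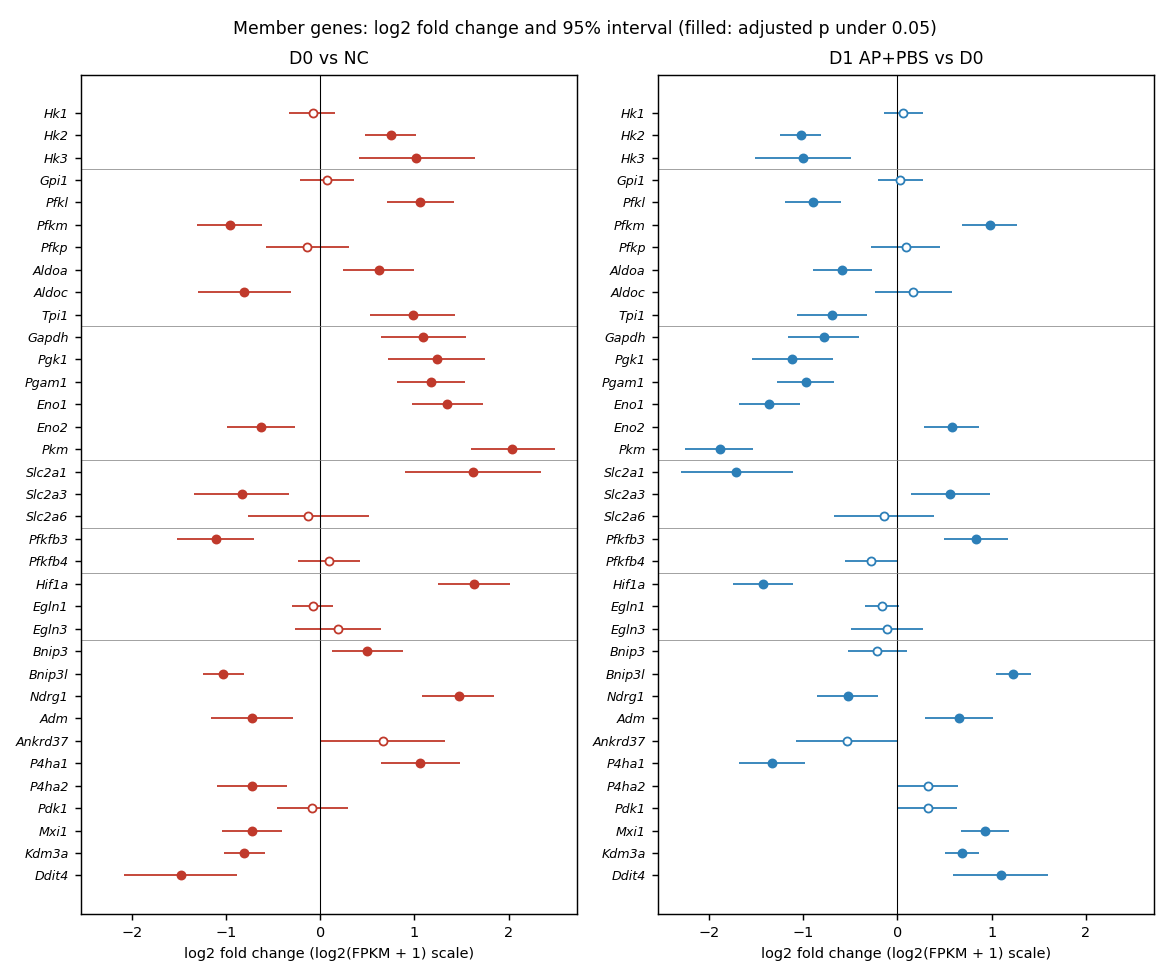
Log2 fold change (points) and 95% confidence interval (lines) of each of the 35 genes on the log2(FPKM + 1) scale, D0 against NC on the left and D1 AP+PBS against D0 on the right; filled points have an adjusted p under 0.05. Pkm lies farthest to the right in D0 (2.04) and farthest to the left on day 1 (-1.89); the 2 panels share the D0 libraries.

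Among the glucose transporters, Slc2a1 (GLUT1, the main basal transporter; NCBI Gene 20525) was at 9.64, 13 and 7.96 FPKM in NC and at 28.0, 38.4, 27.7, 41.6 and 30.7 FPKM in D0. Every D0 library exceeded every NC library, with a log2 fold change of 1.62 ± 0.35 (SE; adjusted p = 3.3e-04). The call was lost with the acinar level (1.11, adjusted p = 0.19) and with the neutrophil level (0.92, adjusted p = 0.062). Slc2a3 (GLUT3, a high-affinity transporter) fell by 0.83 ± 0.25 (adjusted p = 0.0054), from 3.98 ± 0.419 to 1.84 ± 0.543 FPKM. Its direction turned when the level of T, NK and B cell markers entered the fit as a covariate, to 0.46 (adjusted p = 0.047), and its call was lost under quantile normalization (-0.30) and with the acinar level (-0.24). Slc2a6, a lysosomal transporter of macrophages, was at 18.1 ± 5.88 FPKM in NC and 16.4 ± 4.54 in D0 (adjusted p = 0.74). Slc2a1 thus made up 31.6% ± 1.22 of the summed FPKM of the 3 transporters in NC and 64.5% ± 7.81 in D0.

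Pfkfb3 and Pfkfb4 make and remove fructose 2,6-bisphosphate, the main activator of phosphofructokinase, and Pfkfb3 strongly favours its synthesis. Pfkfb3 was at 39.0, 32.4 and 28.1 FPKM in NC and at 18.5, 13.7, 13.9, 12.0 and 16.3 FPKM in D0. Its log2 fold change was -1.11 ± 0.20 (SE, adjusted p = 4.2e-05), and the groups did not overlap. Of the phosphofructokinase genes, Pfkl rose (1.06), Pfkm fell (-0.96) and Pfkp was not called (-0.14). Pfkfb4 was at 15.7 ± 1.09 and 16.8 ± 0.926 FPKM (adjusted p = 0.65), and it was called lower with the lymphocyte level, at -0.56.

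**Figure D3:**
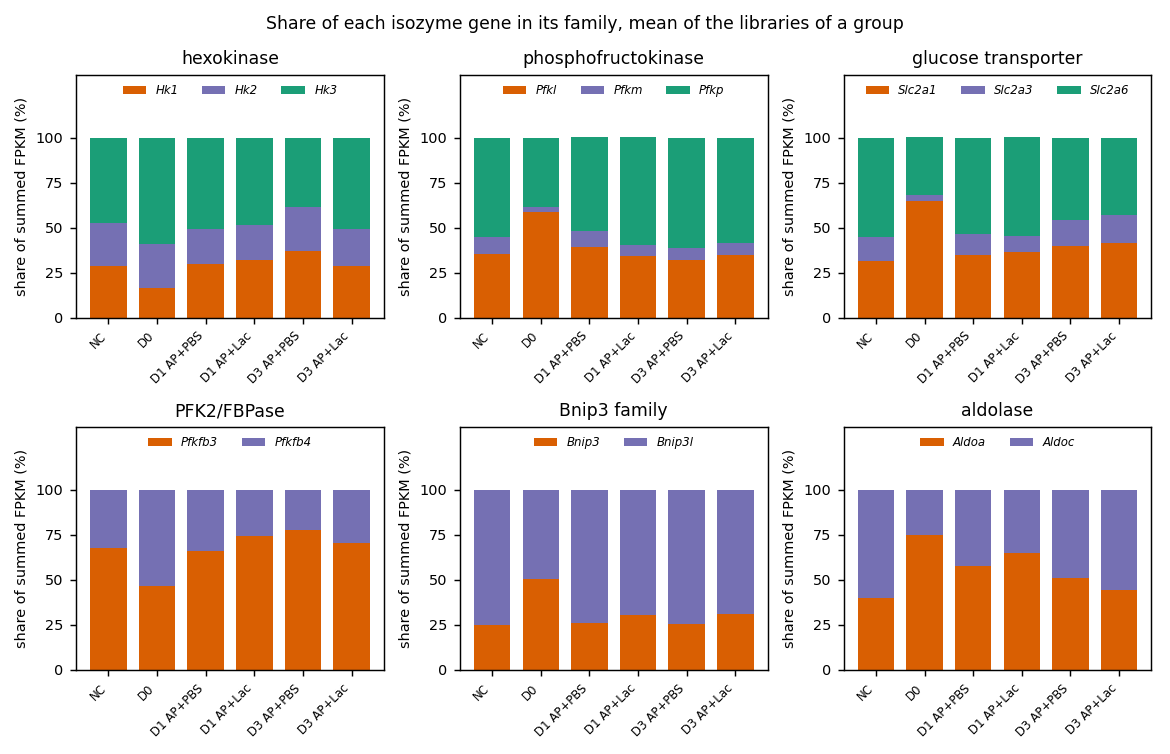
Share of each gene in the summed FPKM of its family (percent, mean over the libraries of a group) for 6 families and 6 groups. In D0 the largest part is Pfkl among the phosphofructokinases (58.9%) and Slc2a1 among the glucose transporters (64.5%), and in NC it is Pfkp (55.4%) and Slc2a6 (55.4%).

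Hif1a (NCBI Gene 15251), the oxygen-regulated subunit, was at 25.7, 36.8 and 31.2 FPKM in NC and at 85.2, 107, 108, 105 and 87.5 FPKM in D0. All D0 libraries were above 85 FPKM and all NC libraries below 37, with a log2 fold change of 1.63 ± 0.19 (SE; adjusted p = 6.6e-08). The prolyl hydroxylases did not pass the test: Egln1, the main oxygen sensor, was at 15.5 ± 0.235 and 14.7 ± 1.90 FPKM (adjusted p = 0.54), and Egln3, itself a HIF target, at 0.531 ± 0.0569 and 0.778 ± 0.391 FPKM (adjusted p = 0.47). Under quantile normalization Egln3 was higher by 0.79 (adjusted p = 0.00079), and it also passed with the lymphocyte level, at 1.10. RNA levels do not report the stability of the HIF protein, which was not measured.

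The other HIF targets split, with 3 of 11 higher and 6 lower (4 and 3 under quantile normalization, 1 and 2 with the acinar level, 3 and 3 with the lymphocyte level), beside 41.4% of all genes being lower. Ndrg1, a gene induced by hypoxia and differentiation (NCBI Gene 17988), was at 5.34, 6.60 and 5.39 FPKM in NC and at 11.9, 21.4, 15.2, 22.1 and 20.1 FPKM in D0. It rose by 1.47 ± 0.19 on the log2 scale (SE; adjusted p = 3.8e-07). P4ha1 rose by 1.06 (adjusted p = 1.1e-04), from 22.7 ± 1.31 to 48.4 ± 2.30 FPKM; the call was lost with the acinar (0.39) and lymphocyte (0.59) levels. P4ha2, with the same cores before its start, fell by 0.72 (adjusted p = 0.0015), from 1.42 ± 0.269 to 0.472 ± 0.202 FPKM, and its log2 fold change was -0.06 (adjusted p = 0.76) under quantile normalization; its call was also lost with the acinar (-0.58) and lymphocyte (-0.47) levels.

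Ddit4 (NCBI Gene 74747) had the lowest log2 fold change of the set on the log2(FPKM + 1) scale. It was at 62.8, 34.6 and 53.1 FPKM in NC and at 16.9, 21.1, 9.97, 24.8 and 14.8 FPKM in D0, without overlap (log2 fold change -1.48 ± 0.29, SE; adjusted p = 1.5e-04). With the lymphocyte level it was -0.36 (adjusted p = 0.44), and with the acinar level -1.03 (adjusted p = 0.15). Bnip3 and Bnip3l are related mitophagy receptors. Bnip3l was at 26.7, 23.2 and 26.1 FPKM in NC and at 14.4, 12.4, 11.9, 10.7 and 10.5 FPKM in D0, a log2 fold change of -1.03 ± 0.11 (adjusted p = 1.6e-08), while Bnip3 rose by 0.50 ± 0.19 (adjusted p = 0.022). The Bnip3 call was lost without the library NC 1 or NC 2 and with each of the acinar (0.24), lymphocyte (0.16) and neutrophil (0.45) levels. In mean FPKM the copy Bnip3l-ps was at 5.23 in NC and 2.54 in D0. Kdm3a, a histone demethylase, fell by 0.81 and Mxi1, an antagonist of Myc, by 0.73 (adjusted p = 5.2e-07 and 2.5e-04). The Mxi1 call was lost under quantile normalization (-0.36, adjusted p = 0.083) and with the acinar level (-0.47). Adm, the vasodilator peptide adrenomedullin, was at 0.529 to 0.961 FPKM in NC and at 0.0882 FPKM or less in D0, where it rested on 5 fragments or fewer per library (log2 fold change -0.73, adjusted p = 0.0052). This call was lost under quantile normalization (-0.34) and with the acinar (-0.06), lymphocyte (-0.23) and neutrophil (-0.68) levels. Ankrd37 and Pdk1, the kinase that shuts pyruvate dehydrogenase, did not pass, with log2 differences of 0.67 and -0.09 (adjusted p = 0.072 and 0.7). Ankrd37 passed under quantile normalization (1.00), under median-ratio scaling (0.94), with the lymphocyte level (2.18) and with the compared groups only (0.67). Pdk1 passed with the lymphocyte level, at 0.58.

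The acinar, lymphocyte, monocyte, neutrophil, dendritic, macrophage and cell cycle markers given above moved with the same groups. The acinar level does not overlap between NC and D0. With it as a covariate 13 of the 35 genes were called, 9 higher and 4 lower, namely Slc2a6, which was not called without it, and 12 genes that held their calls in all 11 alternative analyses run. Those 12 were Pkm, Eno1, Pgk1, Pgam1, Gapdh, Tpi1, Pfkl, Hif1a and Ndrg1, which were higher, and Pfkfb3, Bnip3l and Kdm3a, which were lower. Slc2a1 (1.11), P4ha1 (0.39) and Ddit4 (-1.03) were among the genes that lost their calls with this covariate.

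**Figure D4:**
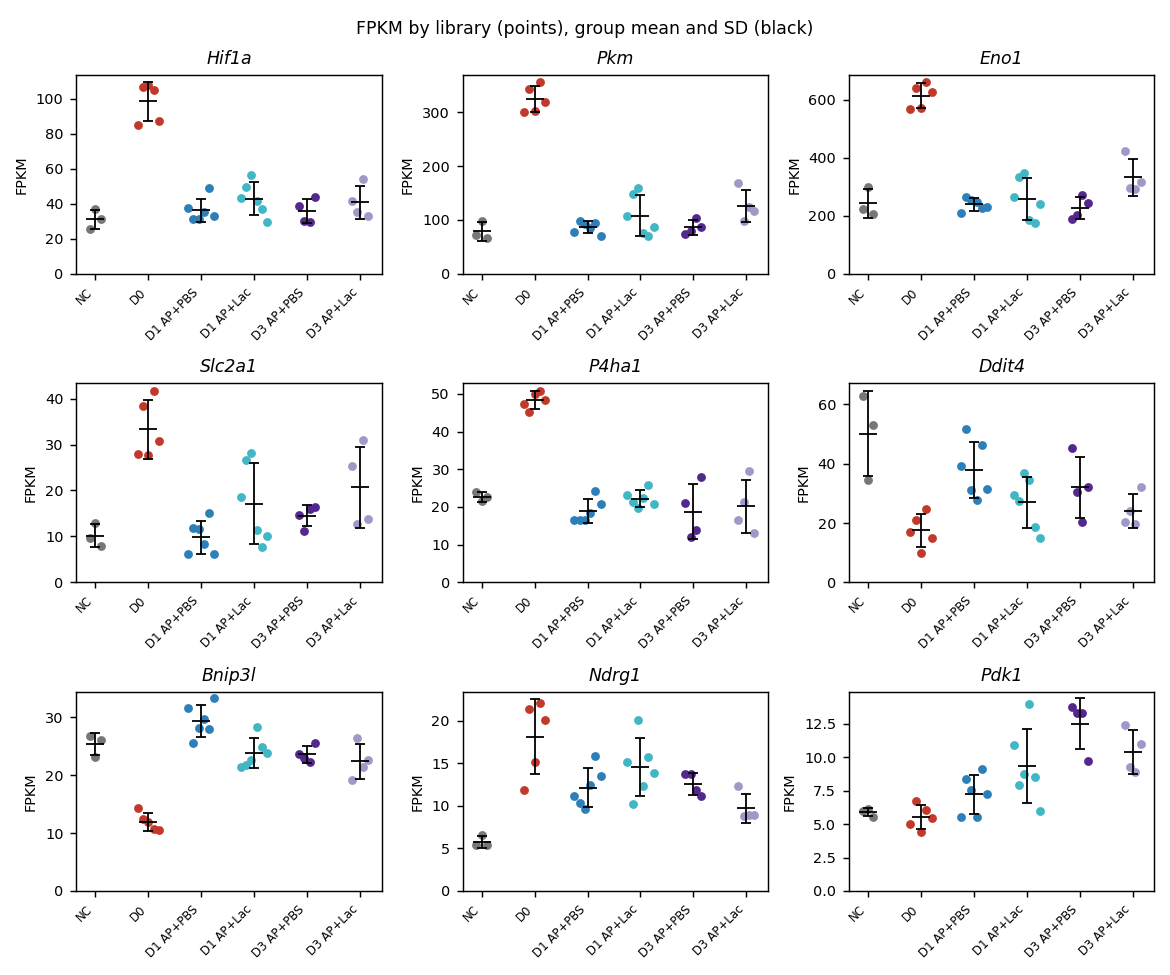
FPKM of 9 of the genes in every library (points), with the group mean and SD (black bar and whiskers); each vertical axis starts at 0. Hif1a, Pkm, Eno1, Slc2a1 and P4ha1 are highest in the 5 D0 libraries, Bnip3l and Ddit4 lowest, and Pdk1 is at 9.70 to 13.8 FPKM in D3 AP+PBS against 5.57 to 6.12 in NC.

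Genes of the same and neighbouring pathways were read from 5 lists beside the set. Over all genes tested 61.1% were called in D0 against NC, 19.7% higher and 41.4% lower, and the counts below stand beside that share. Of 20 tested genes from other glycolytic and entry steps, 6 rose and 6 fell in D0 (9 and 3 under quantile normalization, 9 and 2 under median-ratio scaling, 2 and 1 with the acinar level, 4 and 3 with the neutrophil level). Ugp2, which makes UDP-glucose, rose by 1.00, Pgm2, a phosphopentomutase, by 0.70, and Slc16a3 (MCT4, the lactate exporter) by 2.01, while Eno3, the muscle enolase, fell by 1.07. Of 10 pentose phosphate genes, 3 rose and 1 fell: Pgd, which yields NADPH, rose by 1.30 from 92.5 ± 15.5 to 228 ± 14.0 FPKM, Taldo1 by 0.82 and Rpe by 0.56, and Prps2 fell by 1.01. Of 13 genes that govern the entry of pyruvate into the citrate cycle, 5 rose and 6 fell (6 and 4 under median-ratio scaling, 3 and 3 under quantile normalization, 2 and 3 with the acinar level, 1 and 4 with the neutrophil level), and the 4 with the smallest p all fell. These were Pdk2, a pyruvate dehydrogenase kinase (-1.75), Pdpr, a regulator of the opposing phosphatase (-1.03), the pyruvate carboxylase gene Pcx (-0.93) and Pdp2, a pyruvate dehydrogenase phosphatase (-0.53).

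Of 28 other hypoxia-response genes, 7 rose and 8 fell (12 and 6 under quantile normalization, 13 and 6 under median-ratio scaling). Here too the share called over all genes tested was 61.1%. Plin2, the lipid droplet coat protein, rose by 3.38 from 46.0 ± 7.35 to 488 ± 78.0 FPKM, and Anxa2, a membrane-binding annexin, by 1.62. Ccng2, a cyclin linked to cell cycle exit, fell by 1.88, and Cited2, which competes with HIF for its coactivator, by 1.22. Of 11 genes of the HIF machinery, 3 rose and 4 fell (4 and 2 under quantile normalization, 6 and 3 under median-ratio scaling). Elob and Rbx1, parts of the ubiquitin ligase that VHL joins, rose by 0.94 and 0.72, while Vhl fell by 0.62 and Hif1an, the asparagine hydroxylase that limits HIF activity, by 0.44. Each named change in these lists had an adjusted p of 0.0031 or less. With the acinar covariate the calls of Pgm2, Slc16a3, Eno3, Rpe, Prps2, Pcx and Hif1an were lost, and under quantile normalization that of Pdp2.

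The comparison of D1 AP+PBS with D0 followed the set into the first day of recovery, and it shares the D0 libraries with the comparison above. Of the 35 genes 14 were lower and 9 higher on day 1, against 62.9% of all genes tested being called, 19.8% lower and 43.0% higher. The split was 17 lower and 7 higher under quantile normalization, and 19 lower and 8 higher under median-ratio scaling. The groups did not overlap for 20 genes (44.2% of all genes). The median log2 fold change of the set was -0.16, and of all genes 0.19 (-0.34 and -0.05 under quantile normalization, -0.43 and -0.04 under median-ratio scaling). Markers of other cells differed in the same comparison: 14 of 14 T and NK, 11 of 11 B and plasma cell, 14 of 16 acinar, 10 of 12 dendritic and 12 of 12 cell cycle genes were higher on day 1, and 10 of 10 monocyte and 8 of 11 neutrophil genes lower. Beyond fits with the acinar, lymphocyte or neutrophil level as a covariate, their part in the values below was not tested. The dendritic, monocyte and cell cycle levels entered no fit.

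Pkm, at a lowest of 70.6, a median of 89.2 and a highest of 98.9 FPKM in D1 AP+PBS, was below all 5 D0 libraries (log2 fold change -1.89 ± 0.18, SE; adjusted p = 3.7e-09). Eno1 was at 208, 240 and 264 FPKM (lowest, median, highest; log2 fold change -1.36, adjusted p = 7.1e-08). Slc2a1 was at 6.09, 9.92 and 15.1 FPKM (-1.71, adjusted p = 2.0e-05). Hif1a was at 31.1, 34.1 and 49.2 FPKM (-1.43, adjusted p = 3.3e-08). These levels lie in or near the NC range.

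P4ha1 was at 16.5, 17.5 and 24.3 FPKM on day 1 (lowest, median, highest), a log2 fold change of -1.33 (adjusted p = 4.4e-07). Hk2, Hk3, Pfkl, Aldoa, Tpi1, Gapdh, Pgk1, Pgam1 and Ndrg1 were the other genes lower on day 1, by log2 values between -1.12 (Pgk1) and -0.53 (Ndrg1). The Hk3 call was lost with the acinar (-0.28), lymphocyte (-0.38) and neutrophil (-0.57) levels, as was that of Ndrg1 (-0.27, -0.56 and -0.41 in that order). Aldoa (-0.42) and Tpi1 (-0.52) lost theirs with the neutrophil level. In the other direction Bnip3l was at 25.6, 28.9 and 33.3 FPKM, above every D0 library, with a log2 fold change of 1.23 ± 0.09 (SE; adjusted p = 4.6e-11). Ddit4 was higher by 1.10, Pfkm by 0.98, Mxi1 by 0.93, Pfkfb3 by 0.83, Kdm3a by 0.69, Adm by 0.65, Eno2 by 0.58 and Slc2a3 by 0.56. The Slc2a3 value was -0.90 (adjusted p = 0.00047) and the Ddit4 value -0.18 (adjusted p = 0.73) when the lymphocyte level entered the fit as a covariate. With that level the calls of Eno2 (0.05), Adm (0.09) and Kdm3a (0.24) were lost, and under quantile normalization those of Eno2 (0.05) and Slc2a3 (0.13). The Slc2a3 call was also lost without D0 3, under median-ratio scaling (0.37) and with the acinar level (0.27), as was that of Adm (0.33) with the acinar level.

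Set against NC directly, D1 AP+PBS differed in 1 of the 35 genes, against 14.5% of all genes tested (5.29% higher, 9.18% lower). That gene was Ndrg1, at 9.58, 11.8 and 15.8 FPKM (lowest, median, highest), above all NC libraries, with a log2 fold change of 0.94 ± 0.18 (SE; adjusted p = 5.9e-04). At an unadjusted p under 0.05 there were 5, and the share of all genes at that level was not counted. The median of the set was 0.02 and the groups did not overlap for 3 genes (19.2% of all genes).

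On day 3 under PBS the HIF targets Ndrg1 and Pdk1 were above NC, and no glycolytic enzyme was called. D3 AP+PBS differed from NC in 4 of 35 genes, 2 higher and 2 lower, against 21.2% of all genes tested (10.3% higher, 10.9% lower). The groups did not overlap for 8 (36.7% of all genes). Ndrg1 was at 13.7, 13.7, 11.9 and 11.1 FPKM, above every NC library (log2 fold change 1.01 ± 0.20, SE; adjusted p = 6.4e-04). Pdk1 was at 13.8, 13.3, 13.3 and 9.70 FPKM on day 3 and at 6.00, 6.12 and 5.57 in NC (log2 fold change 0.96 ± 0.19, adjusted p = 7.8e-04). The groups did not overlap, and both genes held their calls in all 11 alternatives and without any single library. Mxi1 was at 5.24, 5.42, 4.72 and 4.40 FPKM on day 3 and at 8.49, 6.21 and 7.71 in NC (-0.50, adjusted p = 0.026). Pfkfb4 was at 10.5, 9.95, 11.5 and 10.6 FPKM and at 15.3, 14.9 and 16.9 in NC (-0.52, adjusted p = 0.031). Without the library NC 1 or NC 3 the count was 2, with neither Mxi1 nor Pfkfb4 called. Mxi1 was also lost without D3 AP+PBS 3 or D3 AP+PBS 4, and Pfkfb4 without NC 2, D3 AP+PBS 1, D3 AP+PBS 2 or D3 AP+PBS 4. With the lymphocyte level both calls were lost (Mxi1 -0.33, Pfkfb4 -0.17), and with no filter that of Pfkfb4. The split was 2 higher and 3 lower under quantile normalization and also under median-ratio scaling. In this comparison 10 of 12 macrophage markers were lower (mean log2 level 7.27 to 7.89 on day 3, 8.60 to 8.87 in NC). Of the others, 12 of 14 T and NK and 6 of 12 dendritic markers were higher. The part of T and NK cells was not tested beyond the lymphocyte covariate, and the macrophage and dendritic levels entered no fit.

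Between day 1 and day 3 under PBS, 6 of 35 genes differed, 4 higher and 2 lower, against 34.3% of all genes (21.5% higher, 12.8% lower), and the groups did not overlap for 4 (15.6% of all genes). The split was 1 higher and 3 lower under quantile normalization and 1 and 4 under median-ratio scaling. On day 3, 13 of 14 T and NK, 12 of 12 dendritic and 11 of 16 acinar markers were higher. Of the macrophage markers 10 of 12 were lower. The dendritic and macrophage levels entered no fit, and the part of the others was not tested beyond the acinar and lymphocyte covariates. Pdk1 was at 5.56, 7.40 and 9.11 FPKM on day 1 (lowest, median, highest), below every day 3 library (log2 fold change 0.72 ± 0.16, SE; adjusted p = 0.0018). Mxi1 was at 6.81, 8.51 and 11.3 FPKM on day 1, above every day 3 library (-0.71 ± 0.13, adjusted p = 5.5e-04). Bnip3l was at 23.6, 23.0, 22.2 and 25.5 FPKM on day 3 (-0.30, adjusted p = 0.017). All 4 of these libraries were below the lowest of day 1. Slc2a3 was at 4.98, 6.22, 6.22 and 3.40 FPKM on day 3 and at 2.08, 3.09 and 4.28 on day 1 (0.56, adjusted p = 0.046). Eno2 was at 2.22, 2.65, 3.08 and 1.25 FPKM against 0.911, 1.34 and 2.00 on day 1 (0.45, adjusted p = 0.026). Pfkfb3 was at 42.7, 35.7, 36.9 and 33.8 FPKM against 21.7, 24.0 and 47.5 (0.45, adjusted p = 0.047). In these 3 genes the groups overlapped. Of 11 alternatives, the Slc2a3 call was lost in 7 (0.04 with the lymphocyte level, 0.32 with the acinar level, 0.42 with the replicate block), and those of Eno2 and Pfkfb3 in 6 each. The replicate block also ended the Eno2 call (0.45, adjusted p = 0.052). Of 10 fits that left out 1 library, Eno2 held its call in 6, Slc2a3 in 3 and Pfkfb3 in 1. The Bnip3l call was lost with the lymphocyte level (-0.22) and without D3 AP+PBS 3. The count was 3 without D1 AP+PBS 4, D3 AP+PBS 1 or D3 AP+PBS 2 and 2 without D3 AP+PBS 3.

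The lactate comparison on day 1 asked whether lactate changed the set beyond PBS. In D1 AP+Lac 2 genes were higher and 2 lower than in D1 AP+PBS, against 9.72% of all genes tested (5.16% higher, 4.56% lower). An unadjusted p under 0.05 was found for 10, and the share of all genes at that level was not counted. The split was 1 higher and 2 lower under quantile normalization, and 1 higher and 1 lower under median-ratio scaling. Hk1 was at 23.2, 24.6 and 25.1 FPKM with lactate and at 16.2, 18.2 and 23.8 with PBS (lowest, median, highest), a log2 fold change of 0.38 ± 0.09 (SE; adjusted p = 0.016). Only the library D1 AP+PBS 5 reached the lactate range. Pfkfb3 was at 24.8, 40.8 and 47.4 FPKM with lactate and at 21.7, 24.0 and 47.5 with PBS (0.52 ± 0.16, adjusted p = 0.036). Mxi1 was at 4.66, 5.88 and 7.02 FPKM with lactate and at 6.81, 8.51 and 11.3 with PBS (-0.49 ± 0.12, adjusted p = 0.015). Bnip3l was at 21.4, 23.3 and 28.4 FPKM with lactate and at 25.6, 28.9 and 33.3 with PBS (-0.29 ± 0.09, adjusted p = 0.03). In none of the 35 genes did the groups separate fully, against 0.410% of all genes.

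The 4 calls depended on single libraries to unlike degrees. Of 12 fits that left out 1 library, Hk1 held its call in 11, Mxi1 in 10, Bnip3l in 6 and Pfkfb3 in 4. No call was made without D1 AP+PBS 1, 1 without D1 AP+PBS 4, and 2 without D1 AP+PBS 6, D1 AP+Lac 1 or D1 AP+Lac 3. When the 2 groups were fitted alone 0 were made, and no gene of the 11960 was called. The Pfkfb3 call was also lost with no filter, under quantile normalization and under median-ratio scaling, and the Bnip3l call with no filter and under median-ratio scaling. Without D1 AP+PBS 5, 6 genes were called, Pfkp (0.56) and Slc2a6 (0.84) being added.

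The lactate libraries of day 1 were spread widely over the glycolytic enzymes. The summed FPKM of the 16 enzymes was 1294 in D1 AP+Lac 2 and 1368 in D1 AP+Lac 3 and 686 to 959 in the other 4 libraries. Each of these libraries was among the 2 highest of its group in 13 of the 16 enzymes. D1 AP+Lac 2 and D1 AP+Lac 3 had the highest cell cycle marker level, 5.17 and 5.35, against 3.59 to 4.19 in the other 4 and 3.20 to 5.23 with PBS. Slc2a1 followed them, at 26.6 and 28.2 FPKM against 7.71 to 18.6. Their B and plasma cell levels were also the highest of the group, 6.51 and 6.82. With PBS, libraries 2 and 3 likewise had the highest cell cycle levels of their group, 5.23 and 4.91. Their summed enzyme FPKM was also the highest there, 1004 and 979. The part of cell cycle content in these levels was not tested. Between the day 1 groups, 7 of 12 dendritic cell and 5 of 14 T and NK cell markers were higher with lactate. Of the monocyte markers 4 of 10 were higher, and of the macrophage markers 4 of 12 were lower. The dendritic, monocyte and macrophage levels entered no fit, so their part in the 4 calls was not tested. In the fits with the acinar, lymphocyte or neutrophil level Hk1 and Mxi1 held their calls. Bnip3l lost its call with the lymphocyte or the neutrophil level.

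Around the set on day 1, 1 of 20 other glycolytic genes was higher with lactate and 1 lower, against 9.72% of all genes tested. Pgm1 was higher by 0.26 and Galm, which flips the anomers of glucose or galactose, lower by 0.41. Pdk2 was lower by 0.69 (adjusted p = 0.0098) at 3.41 ± 0.587 FPKM with lactate and 6.27 ± 1.94 with PBS, and the phosphatase gene Pdp2 was higher by 0.31. Nos2, the inducible nitric oxide synthase, was higher by 1.67 (adjusted p = 0.047) and ranged from 0.905 to 11.8 FPKM with lactate and from 0.00616 to 2.56 with PBS; this call was lost in 8 of the 11 alternatives. Cul2, the scaffold of the VHL ligase, was higher by 0.29 (adjusted p = 0.049), also lost in 8, and the Pgm1 call was lost in 7. The Pdp2 call was lost with no filter, under quantile normalization, with the neutrophil covariate and with the compared groups only. The fit of the compared groups only also ended the Pdk2 and Galm calls. No gene of the 10 in the pentose phosphate list was called.

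On day 3 the glycolytic enzymes lay higher with lactate in nearly all cases, but no member passed the test. Of the 35 genes 0 were called (limma, adjusted p), and 0.376% of all genes tested were (0.192% higher, 0.184% lower). At an unadjusted p under 0.05 there were 15, 13 higher and 2 lower. The share of all genes at that unadjusted p was not counted, so the 15 cannot be read as a result about the set. The log2 fold change was above 0 in 15 of the 16 enzymes, with a median of 0.46, and in 28 of the 35 genes, with a median of 0.27 against 0.02 over all genes. The genes share libraries, so these counts carry no test of their own. The groups did not overlap in 8 genes, 7 higher and 1 lower, against 7.67% of all genes.

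Pgam1 had the smallest p: it was at 91.3, 60.6, 63.2 and 72.2 FPKM with lactate and at 37.3, 40.9, 53.7 and 44.6 with PBS, without overlap (log2 difference 0.68, 95% interval 0.33 to 1.04; adjusted p = 0.071). Pfkl was at 27.0, 19.4, 23.3 and 21.2 FPKM with lactate and at 13.5, 13.8, 16.5 and 18.1 with PBS (0.52, 0.18 to 0.87; adjusted p = 0.12). Eno1 was at 424, 294, 293 and 317 FPKM with lactate and at 189, 201, 270 and 243 with PBS (0.55, 0.18 to 0.92; adjusted p = 0.13). All 4 lactate libraries lay above all 4 PBS libraries for these 3 genes.

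Hk3 had the largest difference and the widest spread, at 58.2, 33.0, 76.0 and 19.7 FPKM with lactate and 20.8, 14.8, 24.1 and 27.9 with PBS (0.92, 0.33 to 1.51; adjusted p = 0.12). Pkm was at 168, 98.5, 124 and 116 FPKM with lactate and 73.2, 79.7, 104 and 87.7 with PBS (0.53, 0.11 to 0.96; adjusted p = 0.19). Pfkfb3 lay the other way, at 28.0, 28.7, 26.2 and 28.3 FPKM with lactate and 42.7, 35.7, 36.9 and 33.8 with PBS (-0.41, -0.80 to -0.01; adjusted p = 0.26). Its 4 lactate libraries were all below the PBS libraries. Hif1a was at 41.4, 35.1, 54.2 and 32.9 FPKM with lactate and 38.6, 30.4, 29.9 and 44.0 with PBS, with overlapping groups (0.18, -0.19 to 0.55; adjusted p = 0.62).

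The library D3 AP+Lac 1 was the highest of its group in 13 of the 16 enzymes, with a summed FPKM of 1531 against 1029 to 1169 in the other 3 and 729 to 949 with PBS. The cell cycle marker level was 4.15 to 5.46 with lactate and 3.77 to 4.46 with PBS, and the acinar level 4.32 to 7.27 and 6.51 to 9.22. The mast cell, basophil and eosinophil level was 1.27 to 2.47 and 0.66 to 1.03, without overlap, and this was the only marker list with called genes (2 of 7 higher). The part of the 3 lists in these differences was not tested, except that the acinar level entered a covariate fit. The cell cycle level and the mast cell, basophil and eosinophil level entered no fit. Without D3 AP+Lac 1 the count of calls was again 0. Pgam1 passed under quantile normalization (0.76) and median-ratio scaling (0.68), with the lymphocyte covariate (0.66, with Pfkl at 0.50), and without D3 AP+PBS 3 (0.78) or D3 AP+Lac 3 (0.74); Hk3 passed without D3 AP+Lac 4 (1.26). Of the neighbouring lists, 1 gene was called on day 3, against 0.376% of all genes tested. Gys1, muscle-type glycogen synthase and a HIF target, was higher by 0.62 (adjusted p = 0.035), at 6.73 ± 0.484 FPKM with lactate (SD, n = 4) and 4.05 ± 0.555 with PBS (SD, n = 4), and was not called with a pseudocount of 0.1, with the neutrophil covariate or with the 2 groups fitted alone. The Gys1 call was also lost without D3 AP+PBS 1, 2 or 4 and without D3 AP+Lac 1, 2 or 4.

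**Figure D5:**
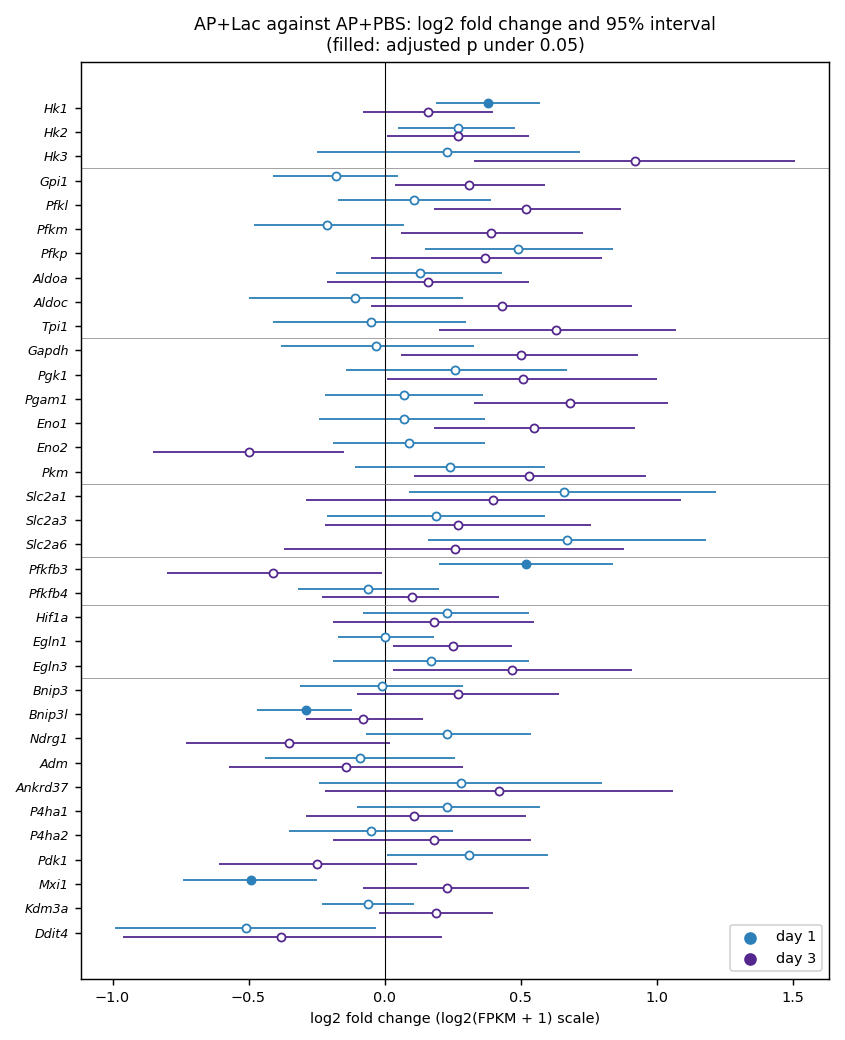
Log2 fold change (points) and 95% confidence interval (lines) of the 35 genes, AP+Lac against AP+PBS, on day 1 (blue) and day 3 (purple); filled points have an adjusted p under 0.05. On day 3 15 of the 16 enzymes lie to the right of 0 and none is filled, and Pfkfb3 lies at 0.52 on day 1 and -0.41 on day 3.

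The lactate difference itself was compared between the days. It differed in 2 of the 35 genes, against 10.7% of all genes tested (4.76% higher, 5.94% lower). An unadjusted p under 0.05 was found for 10, and the share of all genes at that level was not counted. Under quantile normalization 4 were higher and 1 lower, and the split was the same under median-ratio scaling. Among the markers, 6 of 14 T and NK, 6 of 12 dendritic and 4 of 10 monocyte genes were lower in this comparison. In the other direction, 2 of 10 monocyte, 4 of 12 macrophage and 3 of 7 mast cell, basophil and eosinophil genes were higher. Of these lists only T and NK entered a covariate fit, within the lymphocyte level, and the part of the others was not tested. For Pfkfb3 the difference on day 3 was lower than on day 1 by 0.93 on the log2 scale (95% interval -1.44 to -0.42; adjusted p = 0.02), a call held in all 11 alternatives and without any 1 library. For Mxi1 it was higher by 0.72 (0.33 to 1.11; adjusted p = 0.018); the lactate libraries of day 3 were at 5.21, 7.52, 5.30 and 5.99 FPKM, and the call was lost without D3 AP+Lac 2. None of the 16 enzymes differed between the days by this test, the smallest adjusted p being 0.065 for Pfkm (0.60) and 0.066 for Gpi1 (0.50). Both passed under quantile normalization, at 0.65 and 0.62, and under median-ratio scaling, at 0.60 and 0.50. Pgam1 passed under the same scalings, at 0.74 and 0.62. With the lymphocyte covariate Gpi1 (0.57), Pfkm (0.65), Tpi1 (0.79), Gapdh (0.67) and Pgam1 (0.72) passed. Pfkm also passed with the acinar covariate (0.69) and the replicate block (0.60). The count was 6 without D1 AP+PBS 5 (Gpi1, Pfkm, Eno2 and Ndrg1 added) and 4 without D1 AP+Lac 2, D1 AP+Lac 3, D1 AP+Lac 6 or D3 AP+PBS 3.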

How the data were processed

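RNA-seq of sorted pancreatic macrophages was analysed in 28 libraries, made from total RNA. The values are FPKM, which the authors deposited as a single table. No source used here gives their aligner, counter, annotation or genome build; fastp and R 3.2.0 are named in the submitters' processing notes without a role. Columns carry short names, and each was assigned by the name in its sample's description; the column of NC library 2 is named N-2 there.

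FPKM values were taken as deposited. Whole fragments were recovered from the FPKM steps of each library for 100.0% of values (within 0.0001 of a whole number) and used for depth and for 1 alternative. The test was limma 3.58.1 (R 4.3.3) on log2(FPKM + 1) with 1 mean per group over all 28 libraries, trend and robust moderation, a filter that kept genes with 3 or more libraries at an FPKM of 1 or higher, and Benjamini-Hochberg adjustment over the 11960 genes tested, with a threshold of 0.05. It was tested on simulated data. Fold changes are on the log2(FPKM + 1) scale, which understates the change of low genes. Tables and plots used Python 3.11.15, numpy 2.4.6, pandas 2.3.3 and matplotlib 3.10.9.

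The members and the gene lists were chosen with earlier results of these data known. All 35 members could be named. Values by library were given for the members with the 6 largest changes among those called in each comparison and for at least 1 member of each role, and from each neighbouring list the 4 called genes with the smallest p. The 28 pairs of libraries with the same replicate number had correlations of their deviations from the group means between -0.534 and 0.61. In no comparison was every pair above 0.1, and the main fit did not use the numbers as pairs. On day 1 the lactate and PBS libraries numbered 2, 3, 5 and 6 had correlations of 0.493, 0.61, 0.348 and 0.529. Those numbered 1 and 4 had -0.34 and -0.214. These values cannot decide whether the numbers mark pairs, so the replicate block is given as an alternative. No within-group pair of libraries agreed within sampling noise. Alternatives were a pseudocount of 0.1, no filter, an FPKM minimum of 5, quantile normalization, median-ratio scaling, the acinar, lymphocyte or neutrophil marker level as a covariate, the replicate number as a block, limma-voom on the recovered fragments, a fit of the compared groups only, and leaving out each library. The labels name no batch.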

Additional observations from a re-analysis of the deposited data

Results flagged for a closer look

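In 175 sets of 1 gene in 1 group of 4 to 6 libraries, 8 held a library far from the others of its group; chance gives about 1 in 20 such sets. D1 AP+PBS 5 was the library in 4 of them: it had Hk1 at 23.8 FPKM (others 16.2 to 18.7), Slc2a6 at 26.3 (10.4 to 15.9), Pfkfb3 at 47.5 (21.7 to 26.4) and Hif1a at 49.2 (31.1 to 37.6). The same library had the highest monocyte marker level of its group, 7.33. D3 AP+Lac 1 stood apart for Hk1, at 29.7 FPKM (others 20.7 to 21.7), and for Ndrg1, at 12.3 (8.78 to 8.90). Pfkm was at 2.09 FPKM in D1 AP+Lac 5 (others 3.20 to 3.52), and Pdk1 at 9.70 in D3 AP+PBS 4 (others 13.3 to 13.8).

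The lactate difference was unlike on the 2 days for 2 genes, by the interaction of day and lactate in limma: Pfkfb3, at -0.93 (day 3 minus day 1, log2; adjusted p = 0.02), and Mxi1, at 0.72 (adjusted p = 0.018).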

How the results depend on the processing

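Leaving out each library in turn gave 25 to 26 members called in D0 against NC, 1 to 1 in D1 AP+PBS against NC, 23 to 24 in D1 AP+PBS against D0, 2 to 7 between the PBS groups of day 3 and day 1, 2 to 3 in D3 AP+PBS against NC, 0 to 6 for lactate on day 1, 0 to 1 for lactate on day 3 and 1 to 6 for the difference between the days. With the acinar covariate the D0 against NC count was 13, that of D1 AP+PBS against NC 2 and that of the difference between days 4. With the lymphocyte covariate the counts were 4 in D1 AP+PBS against NC, 2 for lactate on day 3 and 8 for the difference between days. Quantile normalization and median-ratio scaling each gave 1 for lactate on day 3 and 5 for the difference between days. For lactate on day 1 the count was 2 with no filter, 2 under median-ratio scaling and 0 with the compared groups only. These were the only counts of members, of 11 alternatives in each of 8 comparisons, that moved by over 1.5 times. Single genes turned in 5 cases: Hk3 in D0 against NC (-0.46, acinar covariate), Eno2 in D0 against NC (0.03, quantile normalization), Slc2a3 with the lymphocyte covariate in D0 against NC (0.46) and in D1 AP+PBS against D0 (-0.90), and Ddit4 in D1 AP+PBS against D0 (-0.18, lymphocyte covariate). The cause was not tested.

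Over all genes the count called for lactate on day 3 was 45 and between 8 (compared groups only) and 574 (acinar covariate) in the alternatives, and in D0 against NC it was 7309 and 2867 with the acinar covariate. With the lymphocyte covariate it was 4833 in place of 7521 in D1 AP+PBS against D0, 2550 in place of 4103 between the PBS groups of day 3 and day 1, 2814 in place of 1731 in D1 AP+PBS against NC and 2078 in place of 1280 for the difference between days, which had 546 with the compared groups only. For lactate on day 1 it was 1162, with 616 under no filter, 756 with the neutrophil covariate and 0 with the compared groups only. With the replicate number as a block, 26, 1, 26, 4, 4, 4, 0 and 3 members were called, in the order above. No count of members thus moved by over 1.5 times, while over all genes the block gave 122 calls for lactate on day 3. The labels do not say what the number stands for. At these depths the genes with few fragments, such as Adm in D0, limit what can be shown.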
